A study of Mus musculus with 8 samples.

Results

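The p53 pathway and its target genes were examined in the quadriceps, a large locomotor muscle of the thigh. The set was a list of 34 gene symbols, and a gene entered it when the array annotation paired at least 1 probe set with that symbol and no other. By this rule 32 of the 34 genes had probe sets, among 18193 genes with a probe set of their own on the array, and 30 of the 32 were bright enough to be tested. Trp53, which encodes p53 itself, and Fdxr were not analysed here. Plk3, a polo-like kinase, and Tnfrsf10b, a death receptor for TRAIL, lay below the filter on dim probe sets, which stood at a signal of 90.2.

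Total RNA of each quadriceps of adult male C57Bl/10 mice was hybridised to 1 Affymetrix whole-genome mouse array, which reads the 3' ends of transcripts with sets of short probes. The 4 control arrays came from mice in room air for 2 weeks. The 4 hypoxia arrays came from mice in a sealed chamber whose oxygen went down from 21% to 8% over 1 week and then stayed at 8% for 7 days. Control mice are not said to have been in a chamber, so confinement and low oxygen cannot be told apart. No agent or altered gene is given for either group, and the labels do not state that each sample is a different animal, so p-values reflect only how much these samples vary.

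p53 is a transcription factor that is kept scarce by the ubiquitin ligase Mdm2 and held inactive by its relative Mdm4. When DNA damage or other stress frees it, p53 switches on genes that stop the cell cycle, repair DNA, promote cell death or autophagy, and also Mdm2 itself, which closes a feedback loop. Many of these targets have further regulators: in skeletal muscle Cdkn1a, Ccng2, Btg1 and other stress genes also respond to FoxO factors and glucocorticoids, so that a change in a target is not by itself a reading of p53.

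The changes were uneven. On their brightest probe sets Perp, Trp53inp1, Cdkn1a and Eda2r rose more than 5-fold. Others of the set, among them Polk, Trp53inp2 and Ccng1, fell. Of the 30 tested genes 12 were higher and 6 lower after hypoxia at an adjusted p under 0.05 (limma, Benjamini-Hochberg over 13257 genes), and 12 did not pass. Over all genes tested 14.8% were called higher and 18.8% lower, against 40% and 20% of these 30. The 14.8% and 18.8% also stand beside the counts given below for each role and for further genes of the pathway. The list was put together with earlier results of these data known, so no test of the list as a whole is given. The median log2 difference of the 30 genes was 0.34, beside -0.04 for all genes tested, and 18 of the 30 differences were above 0. At least a 2-fold difference was reached by 7 of the higher and 3 of the lower genes, where 5.91% and 8.91% of all genes tested did so. No overlap between the groups was seen in 16 of the 30 genes, against 33.4% of all genes tested; 11 of them were higher, against 14.8%, and 5 lower, against 18.7%.

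Throughout, a signal is the deposited MAS5 intensity of the gene's brightest probe set, given as mean ± SD over 4 arrays where averaged. A difference is hypoxia minus control on the log2 scale after adding 16 to the signal, given ± its standard error (SE), and a fold is the antilog of that difference. Signals of different genes are not compared, because each probe set has its own response.

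**Figure D1:**
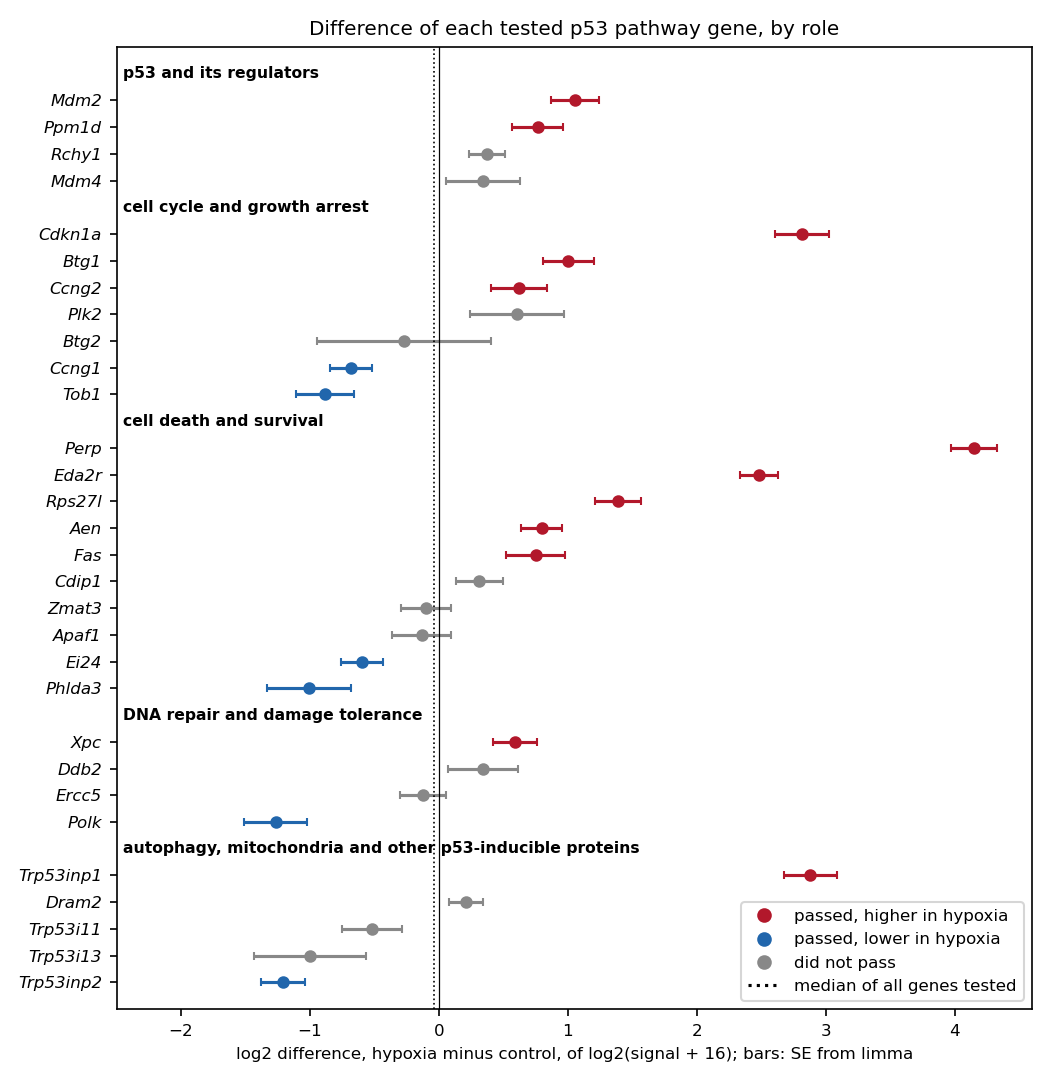
Log2 difference (hypoxia minus control) of each of the 30 tested genes, grouped by role, with bars for the SE from limma, red for genes called higher, blue for genes called lower and grey for genes that did not pass. Perp lies farthest to the right at 4.15 and Polk farthest to the left at -1.26, and the dotted line marks the median of all genes at -0.04.

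Promoter sequence is shown first because the genes share a regulator and p53 binds a known 10-base consensus, the p53 decamer, a pair of which makes up the classical response element. RefSeq promoters of the assembly GRCm38.p6 were found for 28 of the 34 genes. Perp, Tnfrsf10b, Zmat3, Xpc, Ddb2 and Trp53inp1 had no entry. An exact match to the decamer, which reads the same on both strands, was looked for in the 250 bases before each annotated start, and other motifs were not searched. It was found for 10 of these 28 genes (35.7%), against 8.20% of all 27025 genes with such a window. The list was made of known p53 pathway and target genes, so this higher share is not a finding about these data. Among the genes with a window a match was found for 5 of 9 that were called higher, 3 of 6 that were called lower and 1 of 10 that did not pass. These counts are small and were not tested against each other. The remaining match was that of Trp53 itself, whose signal was not analysed here. A match is a run of letters and not a shown binding site, and its absence says only that these letters are not in this window. The genes with matches were called in both directions.

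The matches of 6 called genes are printed 5' to 3' on the gene's own strand, with the decamer in capitals, since they include genes that rose (Cdkn1a, Mdm2, Rps27l) and genes that fell (Ccng1, Ei24, Polk). The printed stretches lie at chr17:29090896-29090947 (plus strand), chr10:117710920-117710959 (minus), chr9:66946291-66946330 (plus), chr11:40755447-40755486 (minus), chr9:36797335-36797359 (minus) and chr13:96519394-96519433 (minus).
Cdkn1a: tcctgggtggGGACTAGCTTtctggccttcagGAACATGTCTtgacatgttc
Mdm2: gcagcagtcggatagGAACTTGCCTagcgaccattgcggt
Rps27l: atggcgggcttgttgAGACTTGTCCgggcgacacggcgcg
Ccng1: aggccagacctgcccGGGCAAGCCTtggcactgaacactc
Ei24: tgccccgtgcggcccGGGCATGCCC
Polk: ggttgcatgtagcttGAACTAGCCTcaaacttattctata
The window before one annotated start of Cdkn1a held 2 decamers separated by 12 bases, and the window before its other start held none. Directly after GAACATGTCT stand the bases tgacatgttc, which miss the decamer only in their opening t and so were not marked. The bases directly before the printed decamers of Ccng1 (agacctgccc) and Rps27l (gggcttgttg) likewise miss it at a single base each. Such near matches therefore adjoin decamers of genes that rose and of a gene that fell. Only exact matches were searched, so the spacing of 12 bases is not given as that of a response element. At least 2 decamers stood in 0.259% of all 32851 windows. Rps27l also had 2, with a further decamer within chr9:66946188-66946227, in the window of one of its 2 starts. The window of Polk likewise belongs to one of its 2 starts. Ppm1d and Aen, both called higher, and Rchy1 had 1 decamer each.

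Among the regulators of p53, Mdm2 and the phosphatase gene Ppm1d rose. Mdm2 had signals of 962, 1199, 1019 and 690.0 on control arrays 1 to 4 and 1784, 2326, 1704 and 2214 on hypoxia arrays 1 to 4. Every hypoxia value lay above every control value, and the difference was 1.05 ± 0.19 (2.08-fold higher, adjusted p = 7.84e-04, limma). A second probe set of Mdm2 changed by only 0.19 and did not pass, and with the mean of its probe sets the difference was 0.62 and still passed, so the size of the Mdm2 rise is uncertain. Ppm1d encodes a phosphatase that takes activating phosphates off p53 and its kinases. Its signal ran 188 to 344 in control and 435 to 533 in hypoxia, and the difference was 0.77 ± 0.20 (adjusted p = 0.0101, limma), with its other probe set at 0.66.

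Mdm4 and Rchy1 did not pass. Mdm4, the inhibitory relative of Mdm2, had signals of 504, 419.5, 289 and 236 on control arrays 1 to 4 and 298, 355, 514 and 708 on hypoxia arrays 1 to 4. The groups overlapped, and the difference was 0.34 ± 0.29 (adjusted p = 0.402, limma). Its brightest probe set can also bind related transcripts, and another at -0.87 had the opposite sign without passing, so no direction is given for Mdm4. Rchy1, a ubiquitin ligase that also targets p53, had signals of 2548 to 3143 in control and 3240.4 to 4302 in hypoxia, without overlap, but its difference of 0.37 ± 0.14 missed the threshold (adjusted p = 0.0575, limma).

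Genes that hold back the cell cycle moved in both directions. Of 7 tested, Cdkn1a, Btg1 and Ccng2 were higher, Tob1 and Ccng1 were lower, and Plk2 and Btg2 did not pass. Cdkn1a encodes p21, the inhibitor of cyclin-dependent kinases through which p53 arrests cells. Its signals were 1754, 1083, 1601 and 875 on control arrays 1 to 4 and 7441, 10602, 9103 and 9543 on hypoxia arrays 1 to 4. The lowest hypoxia value was more than 4 times the highest control value. The difference was 2.82 ± 0.21 (7.04-fold, adjusted p = 1.09e-06, limma), and its other probe set gave 2.65.

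Btg1, an antiproliferative protein that works with the mRNA deadenylation machinery, had signals of 3023, 2696, 4812 and 3286 on control arrays 1 to 4 and 7533, 8058, 6689 and 5179.9 on hypoxia arrays 1 to 4. The groups did not overlap, although control 3 at 4812 came close to hypoxia 4 at 5179.9. The difference was 1.00 ± 0.20 (adjusted p = 0.00162, limma), and a second probe set gave 1.05. Ccng2, an atypical cyclin known for restraining the cycle, was close to the threshold: signals ran 1062 to 1897 in control and 1768 to 3236 in hypoxia, which overlap, and the difference of 0.62 ± 0.22 passed with an adjusted p = 0.0437 (limma). The call was lost in 11 of the 20 alternative settings, among them each leave-out of an array except control 3 and hypoxia 4, where the adjusted p ran up to 0.129, and the other probe set changed by 0.25 without passing.

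Ccng1, cyclin G1, a p53 target that recruits a phosphatase to Mdm2, fell while its relative Ccng2 was called higher. Its signal ran 22998 to 29951 in control and 13977 to 22168 in hypoxia, without overlap. The difference was -0.68 ± 0.16 (adjusted p = 0.00631, limma), and its other probe sets gave -0.63 and -0.61, of which the latter did not pass. Tob1, of the same antiproliferative family as Btg1, fell too, with 14410.0 to 20939.8 in control and 5429 to 12947 in hypoxia and a difference of -0.88 ± 0.23 (adjusted p = 0.0093, limma). Its other probe set was below the filter.

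Btg2 and Plk2 varied more within the groups than between them. Btg2, an early-response member of the BTG family, had signals of 10701, 12759, 1201 and 2606 on control arrays 1 to 4 and 2394, 2649, 11165 and 2850.3 on hypoxia arrays 1 to 4. Control 1, control 2 and hypoxia 3 stood far above the other 5 arrays, so that both groups held high and low values. The difference was -0.27 ± 0.68 (adjusted p = 0.798, limma), with a second probe set at 0.74, and no direction is given. Plk2, a polo-like kinase induced by stress, had signals of 1115, 1088, 499.7 and 759 on control arrays 1 to 4 and 618, 1714, 2371 and 1005 on hypoxia arrays 1 to 4. The difference of 0.61 ± 0.37 did not pass (adjusted p = 0.231, limma), but did without hypoxia 1 (0.94, adjusted p = 0.0355).

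The widest spread of changes was found among genes of cell death and survival, of which 5 of 10 were higher and 2 lower. Perp encodes a tetraspan membrane protein that serves p53-dependent cell death and, in epithelia, the desmosomes. Its signals were 258, 251, 219 and 324 on control arrays 1 to 4 and 4761, 4228, 4374 and 6570.2 on hypoxia arrays 1 to 4. The control values were uniformly low and the hypoxia values uniformly high. The difference was 4.15 ± 0.18 (17.8-fold, adjusted p = 1.49e-08, limma), on the gene's only probe set.

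Of the epithelial and desmosome markers listed for comparison, none of 3 tested passed, and Dsp, Pkp1 and Cdh1 were below the filter and not tested. Dsp, which encodes the desmosomal plaque protein desmoplakin, had signals of 45.7, 19.5, 38.4 and 9.1 on control arrays 1 to 4 and 305, 87.0, 477 and 45.6 on hypoxia arrays 1 to 4, so that hypoxia 1 and hypoxia 3 stood above the filter. The part of desmosomal cells in the Perp difference was not tested. The summed signal of the list ran 435 to 918 in control and 720.1 to 1266 in hypoxia.

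Eda2r is a receptor of the tumour necrosis factor family for a form of ectodysplasin. It had signals of 970.2, 1227, 814 and 1062 on control arrays 1 to 4 and 5789, 5506, 6171 and 5402 on hypoxia arrays 1 to 4. Spread was small in both groups, and the difference was 2.48 ± 0.15 (5.59-fold, adjusted p = 1.83e-07, limma), again on a single probe set. Fas, the death receptor, was called higher (326 to 805 in control and 787 to 968 in hypoxia, difference 0.75 ± 0.23, adjusted p = 0.0223, limma), but the groups overlapped and the call was lost without control 2, control 4 or hypoxia 4 (adjusted p = 0.0558 to 0.0658). Tnfrsf10b, the other death receptor, had signals of 10.1 to 118 in control and 21.9 to 39.0 in hypoxia, all near or below the filter, and its level could not be judged.

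Rps27l encodes a ribosomal protein-like p53 target. Its signals were 12682, 12389, 8505 and 8464 on control arrays 1 to 4 and 33447, 26925, 22739.6 and 25999 on hypoxia arrays 1 to 4. The groups did not overlap, and the difference was 1.39 ± 0.18 (adjusted p = 7.21e-05, limma), with its other probe sets at 1.39 and 1.49. Its brightest probe set and the other at 1.39 are of a kind that can bind related transcripts. The ribosomal protein gene Rps27 encodes a near-identical protein, but binding of these probe sets to its transcript was not tested. The probe set of Rps27 was also higher (161 to 232 in control and 465 to 721 in hypoxia, difference 1.57 ± 0.20). The set of Rps27l at 1.49 is not of that kind and also passed, but its binding to Rps27 was not tested. How much of the rise belongs to Rps27l is therefore uncertain. Aen, an apoptosis-enhancing nuclease, was higher on its brightest probe set (896 to 1262 in control and 1549 to 2041 in hypoxia, difference 0.80 ± 0.16, adjusted p = 0.00184, limma). The other 2 past the filter changed by 0.09 and -0.22, neither passing, and with the mean of its probe sets Aen did not pass (0.22, adjusted p = 0.378), so its change is uncertain.

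Phlda3, which competes with Akt for membrane lipids and so dampens survival signalling, was lower. Its signals were 9107, 6372, 8668 and 5773 on control arrays 1 to 4 and 1708, 3544, 6718 and 4353 on hypoxia arrays 1 to 4. Hypoxia 3 lay within the control range and hypoxia 1 far below it. The difference was -1.005 ± 0.32 (adjusted p = 0.0299, limma), and it was -0.64 without hypoxia 1. The call was lost without control 1, control 3 or hypoxia 2 (adjusted p = 0.066 to 0.0793). Ei24, an endoplasmic reticulum protein linked to autophagy, fell without overlap (2849 to 3319 in control and 1457 to 2334 in hypoxia, difference -0.60 ± 0.16, adjusted p = 0.013, limma).

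Apaf1, the scaffold of the apoptosome, Zmat3, an RNA-binding zinc finger protein, and Cdip1, a mediator of p53-dependent cell death, did not pass. Their differences were -0.13 ± 0.23, -0.10 ± 0.19 and 0.31 ± 0.18, and the 3 other probe sets of Cdip1 were all below 0, so no direction is given for it. A change of Apaf1 was not detectable with 4 arrays a group, at signals of 199 to 299 in control and 164 to 275 in hypoxia.

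**Figure D2:**
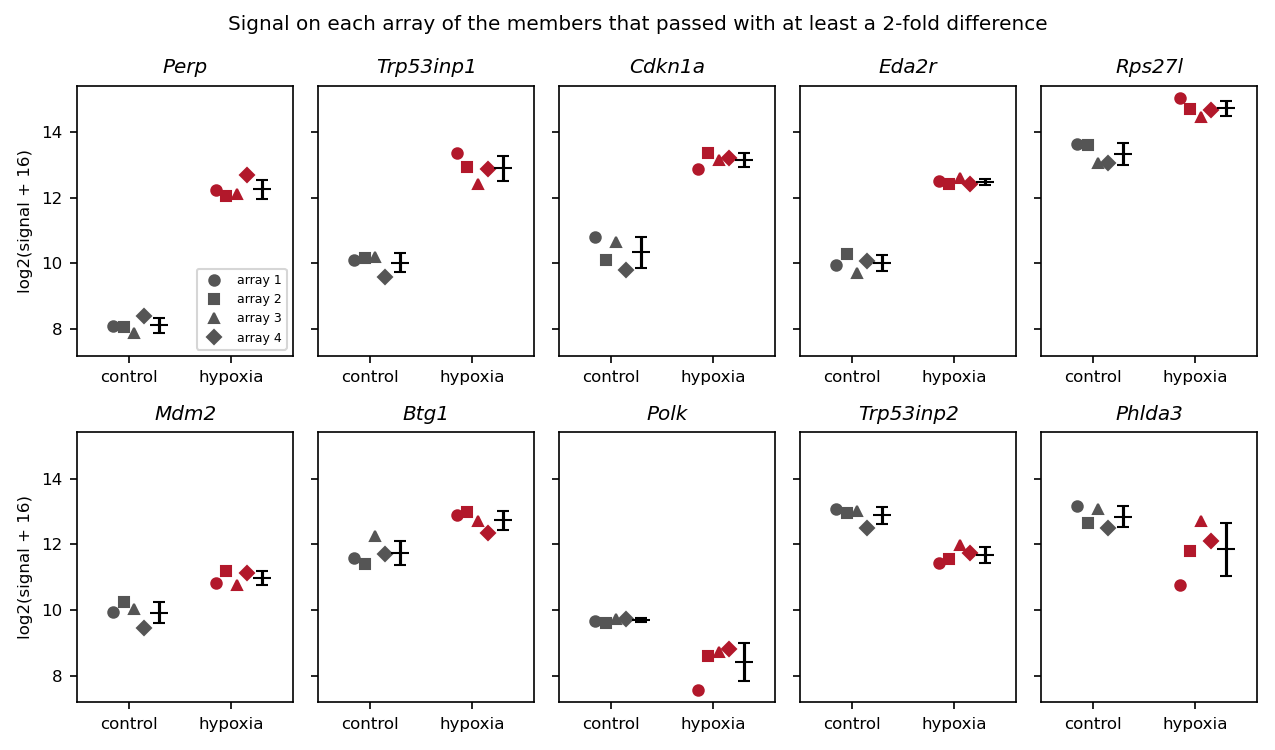
Log2(signal + 16) on each array for the 10 genes that passed with at least a 2-fold difference, with control in grey, hypoxia in red, one marker shape per array number, and the mean ± SD (n = 4) beside each group. In all of these genes except Phlda3 the groups do not overlap, and hypoxia 1 is the lowest hypoxia array for Cdkn1a, Polk, Phlda3 and Trp53inp2.

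Repair genes showed 1 rise, 1 fall and 2 genes that did not pass. Polk encodes DNA polymerase kappa, which copies across damaged bases. Its signals were 794, 764, 837 and 832 on control arrays 1 to 4 and 172, 370.4, 402 and 435 on hypoxia arrays 1 to 4. The control values were tight and all hypoxia values lay below them, lowest in hypoxia 1. The difference was -1.26 ± 0.24 (2.4-fold lower, adjusted p = 0.00156, limma), it was -0.98 without hypoxia 1, and the other probe set passed as well at -0.70. Xpc, which recognises distorted DNA in nucleotide excision repair, was higher without overlap (329.5 to 429 in control and 486 to 703 in hypoxia, difference 0.59 ± 0.17, adjusted p = 0.0164, limma), and lost the call without control 1 (adjusted p = 0.051). Ddb2, which finds ultraviolet damage, and Ercc5, an endonuclease of the same repair path, had differences of 0.34 ± 0.27 and -0.12 ± 0.18 and did not pass.

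The paralogs Trp53inp1 and Trp53inp2, which both encode nuclear proteins that take part in autophagy, moved in opposite directions. Trp53inp1 had signals of 1089.7, 1126, 1166 and 759 on control arrays 1 to 4 and 10582, 7768, 5477 and 7484 on hypoxia arrays 1 to 4. The groups stood well apart, and the difference was 2.88 ± 0.20 (7.36-fold higher, adjusted p = 6.76e-07, limma), with its other probe set at 1.32, which also passed. With the mean of its probe sets the difference was 2.10 and still passed, so the size of the Trp53inp1 rise is uncertain. Trp53inp2 had signals of 8639, 7898, 8235 and 5813 on control arrays 1 to 4 and 2755, 2992, 4049 and 3394 on hypoxia arrays 1 to 4. Here all hypoxia values lay below all control values, with a difference of -1.21 ± 0.17 (2.31-fold lower, adjusted p = 1.42e-04, limma) and -1.28 on the other probe set. These calls were kept in all 20 alternative settings for both genes.

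Dram2, a lysosomal membrane protein that promotes autophagy, had a difference of 0.21 ± 0.13 and an opposite -0.31 on its other probe set, and neither passed. Trp53i11 at -0.52 ± 0.23 and Trp53i13 at -1.001 ± 0.43 did not pass either. Trp53i13 had signals of 254, 296, 301 and 278 on control arrays 1 to 4 and 91.5, 42.3, 302 and 229 on hypoxia arrays 1 to 4, so that hypoxia 1 and 2 were low and hypoxia 3 and 4 lay near or within the control range.

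Several genes had more than 1 probe set. The 32 genes had 63 probe sets in all, and 21 genes had several. Of the 31 probe sets that were not the brightest of their gene, 22 passed the filter on dim values, and 8 of these had a difference of the opposite sign. The 8 belonged to Mdm4, Btg2, Aen, Cdip1, Ddb2 and Dram2, and of these genes only Aen had been called.

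**Figure D3:**
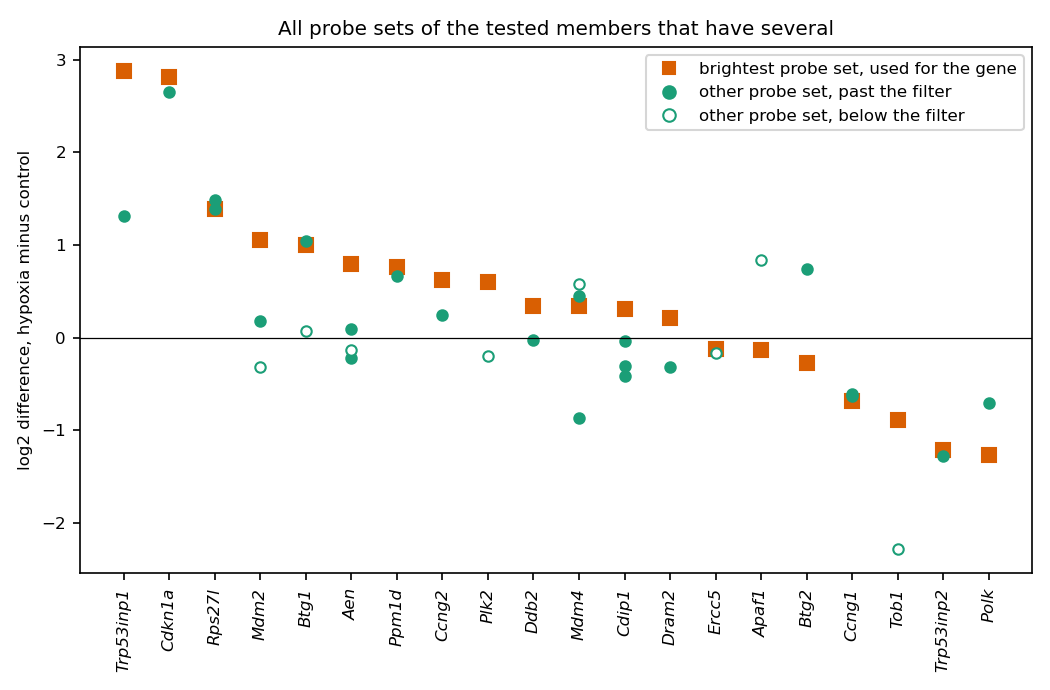
Log2 difference (hypoxia minus control) of every probe set of the tested genes that have several, as orange squares for the brightest, filled green circles for others past the filter and open circles for others below it. Cdkn1a, Rps27l, Ppm1d, Ccng1 and Trp53inp2 give nearly the same value on each probe set past the filter, whereas Mdm2, Aen, Btg2 and Mdm4 do not.

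Other genes of the pathway, taken from lists that hold none of the 34, were called in both directions as well. Of 11 activators and cofactors of p53, 9 were tested, and 2 were higher and 2 lower (median difference 0.02). Over all genes tested 14.8% were higher and 18.8% lower, so counts this small are not read as a change of the list. The kinase Atr, which signals stalled replication, and the acetyltransferase Crebbp, which acetylates p53, were higher at 1.02 ± 0.18 and 1.02 ± 0.20. A further probe set of Crebbp passed in the opposite direction at -0.68 and one of Atr was at -0.34 without passing, so both are uncertain. The kinase Dyrk2 and the damage-response protein gene Trp53bp1 were lower at -1.42 ± 0.28 and -0.82 ± 0.21, and another probe set of Trp53bp1 at 0.14 did not pass. The damage kinase Atm and the kinase Hipk2 did not pass on their brightest probe sets (-0.17 and 0.02). Another probe set of Atm passed at -0.94, and 3 of Hipk2 passed at -0.94, -0.82 and 1.49, in both directions. Of 8 relatives and inhibitors of p53, 7 were tested (median 0.25), and Sirt1, a deacetylase of p53, was the one that passed on its brightest probe set, at 0.88 ± 0.18. Other probe sets passed for Trp63, a p53 relative, at 0.91, for Ppp1r13l, an inhibitor of p53, at 0.94, and for Usp7, a deubiquitinase of p53 and Mdm2, at -0.75, where the brightest gave 0.61, 0.25 and 0.37, so the count for this list depends on the probe set taken.

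Of 24 further p53 target genes, 16 were tested, of which 5 were higher, 4 lower and 7 not passed (median difference 0.37). The shares over all genes tested were 14.8% higher and 18.8% lower. Gadd45a, a stress gene of growth arrest, rose 12.2-fold (from 489.6 ± 123 to 6046 ± 988), and Sesn1, a stress-induced inhibitor of mTORC1, rose 12-fold with all 4 of its probe sets passing. Bid, a pro-apoptotic BCL2 relative, was also called higher, with signals of 6.4 to 86.9 in control and 283 to 823 in hypoxia. All of its control values lay below the filter, which it passed through the hypoxia arrays, so the size of its rise is uncertain. Siah1a, a ubiquitin ligase, rose by 1.64 ± 0.23. Pcna, the sliding clamp of replication, which was named after its value was seen, rose by 0.61 ± 0.14. The 4 that fell were Pidd1 at -2.01 ± 0.51, Pltp, the phospholipid transfer protein, at -1.57 ± 0.18, Dram1, the lysosomal relative of Dram2, at -0.92 ± 0.22, and Rrm2b, the p53-inducible ribonucleotide reductase subunit, at -0.67 ± 0.16. All hypoxia values of Pidd1 lay below the filter, which it passed through the control arrays, so the size of its fall is uncertain too. The counts of 5 higher and 4 lower include Bid and Pidd1 and so depend in part on the filter. Tigar, a regulator of glycolysis, was counted as not passed on its brightest probe set (-0.05), but its other 2 passed as lower, at -0.98 and -1.78. Steap3, a metalloreductase, was likewise counted as not passed at -0.61, with another probe set that passed at -0.98. The Gadd45a and Sesn1 rises therefore stood beside falls of Rrm2b and Dram1, as the rises of Cdkn1a and Trp53inp1 stood beside those of Ccng1 and Polk.

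An RNA quality ratio and some lists of cell type markers differed between the groups. The Gapdh control ratio of 3' to 5' signal was 3.44 in hypoxia 1 and 0.776 to 0.874 on the other 7 arrays, and the actin ratio was 1.40 to 2.53 in hypoxia and 1.09 to 1.25 in control. Without hypoxia 1 the counts were again 12 higher and 6 lower, of which 11 and 6 were the genes called with all arrays, since Ccng2 was lost and Plk2 gained. The part of the actin ratio in the results was not tested.

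All 7 myofibre genes, among them Ckm and Acta1, passed the filter, which marks skeletal muscle but does not tell quadriceps from another muscle. Their summed signal ran 346841 to 412453 in control and 225239 to 311947 in hypoxia, with 6 of 7 lower. All 5 fibroblast genes were lower, with a summed signal of 44572 to 47647 in control and 13773 to 17951 in hypoxia. In the macrophage list 1 of 7 was higher and 2 were lower (7015 to 9574 in control and 7762 to 12148 in hypoxia). The higher one was Cd68 (211 to 382 in control and 3412 to 5268.5 in hypoxia). Adgre1 and Csf1r were lower at -0.85 and -0.88, so the sum hides changes in both directions. In the neutrophil list 2 of 4 tested, S100a8 and S100a9, were higher (414 to 882 in control and 2881 to 5455 in hypoxia), with Mpo below the filter. All control values of S100a9 lay below the filter, which it passed through the hypoxia arrays, so this count depends in part on the filter. In the endothelial list 1 of 5 was lower (2624 to 5425 in control and 2015 to 4566 in hypoxia). None of 3 tested satellite cell genes (1272 to 1655 in control and 1284 to 1709.6 in hypoxia), none of 2 tested genes of dividing cells (241 to 581 in control and 305 to 408 in hypoxia) and none of 2 tested erythroid genes (669 to 1699 in control and 881 to 1324 in hypoxia) passed, with Pax7, Cdk1, Birc5 and Hba-a1 below the filter. In whole muscle, fewer cells of a type and less RNA per cell cannot be told apart, and the part of these shifts in the differences above was not tested.

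Most calls held under the alternative settings tried. Of the 18 called genes, 13 had the same call in all 20 alternative settings: Perp, Trp53inp1, Cdkn1a, Eda2r, Rps27l, Mdm2, Btg1 and Ppm1d among the higher, and Polk, Trp53inp2, Tob1, Ccng1 and Ei24 among the lower. The other 5 were Ccng2, Fas, Aen, Xpc and Phlda3. Of the 12 genes that did not pass, 4 passed in at least 1 alternative: Rchy1, Plk2, Trp53i11 and Trp53i13.

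**Figure D4:**
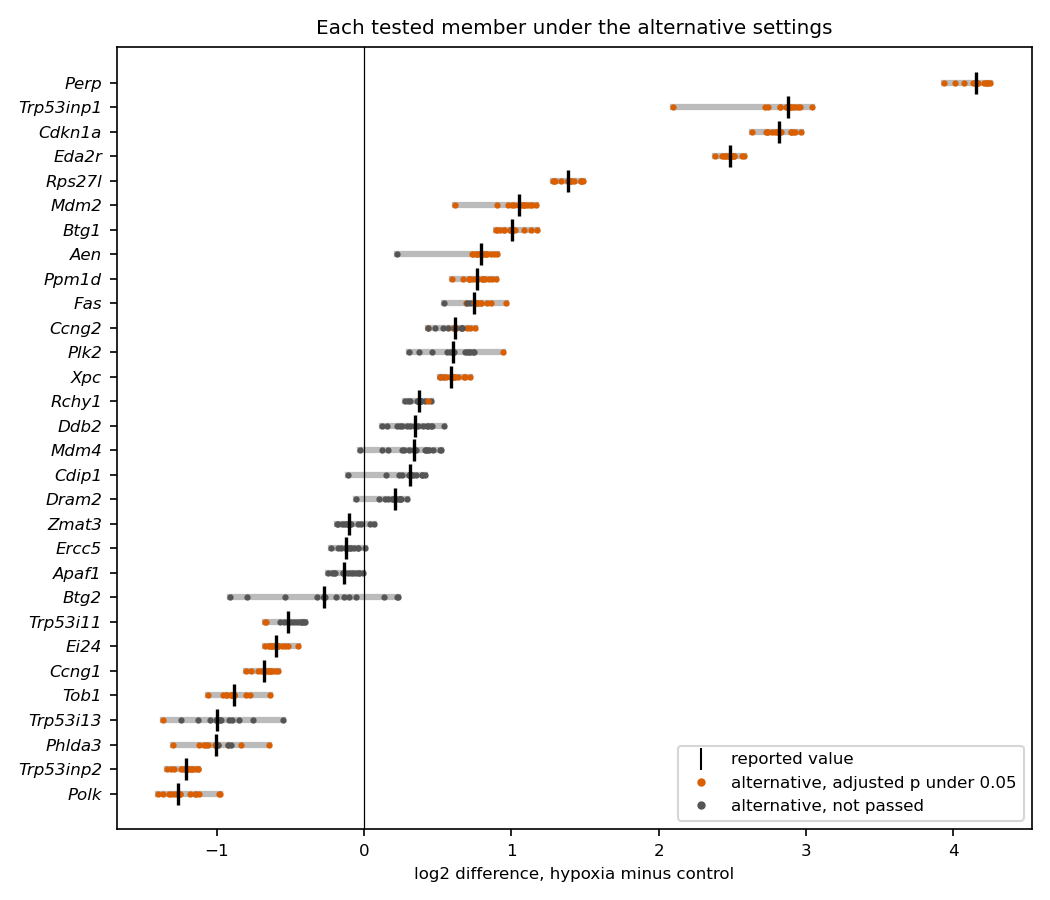
Log2 difference of each tested gene as reported (black tick) and under each of the 20 alternative settings (orange dots where the adjusted p is under 0.05, grey dots otherwise, with a grey bar over their range). Perp stays between 3.93 and 4.25 and Cdkn1a between 2.64 and 2.97, whereas Btg2 spans -0.91 to 0.23.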

How the data were processed

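Per the submitters' processing notes the authors used MAS5, and the deposited values are signal intensities on a linear scale, 1 per probe set and array. The version of MAS5 is not given in the sources used here. The 2% trimmed mean was 500.0 on each of the 8 arrays, and this scaling by the authors was left as it was. No 2 arrays were identical. Titles gave groups and replicate numbers.

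From 45101 probe sets, 64 controls and then the dimmest 40% by mean log2 value were removed. Symbols came from the platform annotation and were updated by gene identifier. A single symbol was listed for 34945 probe sets, several for 932 and none for 9211. The brightest probe set stood for each of 13257 genes. Log2(signal + 16) was fitted with limma 3.58.1 in R 4.3.3 (two-sided, intensity trend, unpaired), p-values were adjusted by Benjamini-Hochberg, and the threshold was 0.05. The fit was tested on simulated data. The constant understates folds of dim genes, and the number of arrays limits precision.

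Members and lists were chosen with earlier results of these data known. Every member is accounted for, and array values are given for members that passed with at least a 2-fold difference, for Mdm2, Mdm4 and Cdkn1a, and for Btg2, Plk2 and Trp53i13, which were chosen after their values were seen. From each further list up to 4 genes a direction with the smallest p are named. Pcna, and the genes of those lists named because another of their probe sets passed, were chosen after their values were seen. Alternatives changed the normalization (quantile, or median centring), the constant (1 or 64), the filter (none, or 60%), the use of probe sets (averaged per gene, or each as a unit), the variance model (no trend, or robust), array weights or a replicate block, or left out each array in turn.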

Additional observations from a re-analysis of the deposited data

Results flagged for a closer look

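Within the groups of 4, a single array stood apart from the other 3 by more than Dixon's criterion allows in 3 of 60 checks (30 genes in 2 groups), where chance flags about 1 in 20. Btg2 was at 11165 in hypoxia 3, against 2394 to 2850.3 on the other hypoxia arrays. Ccng1 was at 22998 in control 1, below the other control arrays at 28666 to 29951. Trp53inp1 was at 759 in control 4, below the others at 1089.7 to 1166.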

How the results depend on the processing

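Across 20 alternatives the count of p53 pathway genes called higher ran from 10 to 12 and the count called lower from 5 to 8, the latter without hypoxia 3, and their median difference from 0.28 to 0.42, except with probe sets averaged per gene, where it was 0.19. The other pathway genes gave 6 to 10 higher and 5 to 8 lower. With the replicate number as a block, 11 genes were higher and 6 lower, and Ccng2 was the call lost (adjusted p = 0.0781). The numbers did not pair the arrays: the deviations of same-numbered arrays correlated at -0.07 to 0.00, and none of 8 arrays correlated best with its own number. Signs reversed only for genes that had not passed: Zmat3 (0.042) and Ercc5 (0.0054) after quantile normalization, Mdm4 (-0.027), Btg2 (0.23), Cdip1 (-0.11) and Dram2 (-0.052) with averaged probe sets, Btg2 without control 1 (0.14) or control 2 (0.22), and Zmat3 without control 4 (0.066). Leaving out 1 array at a time, Btg2 ran from -0.91 to 0.22 and Zmat3 from -0.18 to 0.066. The causes were not tested. Without the intensity trend Ccng2 and Phlda3 lost their calls (adjusted p = 0.0779 and 0.0626). Without the filter, Plk3 and Tnfrsf10b had differences of -0.84 and -0.73 and did not pass (adjusted p = 0.273 and 0.299).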

Other observations

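The uneven signal of Btg2 had counterparts among early-response genes outside the p53 list, looked at after the Btg2 values were seen. Fos, a subunit of the AP-1 transcription factor, had signals of 23792, 34313, 4557 and 6792 on control arrays 1 to 4 and 7281, 8585, 21486 and 2414 on hypoxia arrays 1 to 4. Junb, another subunit of AP-1, had 1972, 1409.5, 214 and 350.0 on control arrays 1 to 4 and 311, 404, 1701 and 332 on hypoxia arrays 1 to 4. In both genes control 1, control 2 and hypoxia 3 were the 3 highest arrays, as they were for Btg2 on each of its 2 probe sets. Egr1, a zinc finger transcription factor, ran 1909.6 to 20265 in control and 2357 to 13802 in hypoxia, and Ier2, a nuclear early-response protein, 655 to 5226 in control and 537 to 2332 in hypoxia, with the same 3 arrays highest. None of these 4 genes passed between hypoxia and control, with differences of -0.74 ± 0.66, -0.39 ± 0.66, -0.29 ± 0.62 and -0.75 ± 0.57 for Fos, Junb, Egr1 and Ier2. Plk2, also known as an early-response gene, did not follow this order, with hypoxia 3 and hypoxia 2 highest. Perp, Cdkn1a, Trp53inp1 and Eda2r did not follow it either: in each of them all 4 hypoxia arrays were higher than all 4 control arrays.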
